A study of Mus musculus with 3 samples.

Results

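The 8 loci described here carry genes that nearly every mouse cell transcribes at a high level: *Actb*, *Gapdh*, *Eef1a1*, *Hspa8*, *Ncl*, *Npm1*, *Hsp90ab1* and *Ppia*. They were chosen by name, as gene spans in whole kb of the mm9 build with 10 kb added on both sides, and not by any read count. With their flanks they fill 434 of the 5115180 bins of 500 bp in the usable genome. The data are chromatin immunoprecipitation followed by sequencing (ChIP-seq) from mouse embryonic stem (ES) cells of the C57BL/6 strain, kept undifferentiated without feeder cells. The 3 libraries were made with an in-house antibody against TET2, a commercial antibody against OGT and an antibody against H2B S112GlcNAc, 1 library each. All 3 come from the same kind of cell, with no genetic change or treatment named, and the antibody is the difference that their labels name. With 1 library each, the antibody cannot be told apart from the depth or handling of its library. No input or IgG library was used here, so every value includes whatever reads such chromatin gives with any antibody. No RNA was measured, so neither the ES cell label nor the expression level of the 8 genes was checked against these data.

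TET2 belongs to the TET dioxygenases, which oxidise the methyl group of methylated cytosine. OGT is the only enzyme known to place O-linked N-acetylglucosamine (GlcNAc) on nuclear and cytosolic proteins, and it binds TET proteins. H2B S112GlcNAc is histone H2B with that sugar on a serine near its C-terminal end. Genes of the housekeeping class usually start in CpG islands, stretches rich in unmethylated CpG dinucleotides, where chromatin is open in most cell types. They therefore show what the 3 antibodies recover at start sites that are active in nearly every cell.

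Depth was low. The libraries held 3295957 (TET2), 1877581 (OGT) and 4021971 (H2B S112GlcNAc) distinct 5′ end positions on chromosomes 1 to 19 and X, with repeats of a position and strand counted once. That is a mean of 1.29, 0.734 and 1.57 positions per kb. A window of 2.5 kb thus holds 3.22, 1.84 and 3.93 positions at the library mean, and every value below is given as a count and as a fold over this mean. Exact 95% intervals follow the values in parentheses. They hold counting error and nothing else, as PCR copies without molecular identifiers are not separate molecules. Each antibody has a single library, so differences were not checked against replicates and were given no p-value. In a bulk sample, binding in more cells and more binding per cell cannot be told apart.

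RefSeq promoter sequences were at hand for 4 of the 8 genes, and they are shown because the counts below were taken around these starts. Each runs 5′ to 3′ on the strand of the gene, from 250 bases before the start to 50 after it, as in build GRCm38.p6. The files use mm9, so no coordinates of these sequences are given. Capitals mark CpG dinucleotides.

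Ppia: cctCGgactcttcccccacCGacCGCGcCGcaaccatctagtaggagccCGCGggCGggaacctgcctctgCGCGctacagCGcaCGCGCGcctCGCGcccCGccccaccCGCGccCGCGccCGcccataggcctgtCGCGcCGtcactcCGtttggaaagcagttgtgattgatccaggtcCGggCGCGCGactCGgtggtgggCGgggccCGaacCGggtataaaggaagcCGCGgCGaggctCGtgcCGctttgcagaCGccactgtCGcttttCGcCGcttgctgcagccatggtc
Ncl: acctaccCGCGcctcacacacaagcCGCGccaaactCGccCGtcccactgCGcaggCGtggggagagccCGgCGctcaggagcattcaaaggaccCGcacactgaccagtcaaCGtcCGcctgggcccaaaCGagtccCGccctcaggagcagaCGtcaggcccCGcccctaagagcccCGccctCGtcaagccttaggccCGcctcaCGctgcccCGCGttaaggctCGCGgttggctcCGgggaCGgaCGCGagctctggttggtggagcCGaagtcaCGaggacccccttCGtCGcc
Eef1a1: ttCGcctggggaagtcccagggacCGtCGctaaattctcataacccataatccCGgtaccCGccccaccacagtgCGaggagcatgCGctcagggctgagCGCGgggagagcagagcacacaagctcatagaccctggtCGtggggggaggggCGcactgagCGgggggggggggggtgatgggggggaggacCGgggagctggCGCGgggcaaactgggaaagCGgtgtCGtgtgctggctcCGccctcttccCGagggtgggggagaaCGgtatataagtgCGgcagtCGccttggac
Gapdh: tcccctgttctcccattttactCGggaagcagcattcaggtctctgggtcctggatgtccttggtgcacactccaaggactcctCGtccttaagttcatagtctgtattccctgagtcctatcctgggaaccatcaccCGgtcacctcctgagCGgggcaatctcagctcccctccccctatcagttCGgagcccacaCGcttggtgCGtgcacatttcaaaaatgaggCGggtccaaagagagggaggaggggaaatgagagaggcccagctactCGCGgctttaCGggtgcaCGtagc

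The 4 promoters differ widely in CpG content. *Ppia* has 43 CpG and 70.7% G or C, *Ncl* 33 CpG and 69.3%, *Eef1a1* 22 CpG and 66.7%, and *Gapdh* 12 CpG and 56.7%. Over all 32544 promoters of the table the median was 7 CpG and 53% G or C, and 2.63%, 8.63%, 23.3% and 39.9% of them had at least as many CpG as *Ppia*, *Ncl*, *Eef1a1* and *Gapdh*. The GC box GGGCGG, the element read by SP1 and its relatives, was searched on both strands and matched 4 times in *Ppia*, 3 times in *Ncl*, 2 times in *Eef1a1* and 0 times in *Gapdh*. It occurs in 35.9% of all promoters. The TATA box, searched as the exact letters TATAAA and not in its variants, matched once, in *Ppia*, 29 bases before the start. It is in 13.6% of promoters. The palindromic NRF1 motif also matched once, in *Ppia* (4.63% of promoters). The ETS core CCGGAAG (8.91%), the cAMP response element TGACGTCA (1.80%), the CCAAT box CCAAT (37.4%) and the YY1 core AAGATGGCG (1.41%) had no match in these 4 windows. No matches overlapped each other. A match is a description of letters, and its absence says nothing about a factor.

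Reads of all 3 libraries were denser at the 5′ edge of the genes than in their bodies or flanks. Since the spans are given in whole kb, the start was taken as a window of 2.5 kb, from 1 kb outside the 5′ edge to 1.5 kb inside it. Summed over the 8 genes this window held 152 TET2 positions, 5.90-fold over the library mean (5.0 to 6.91). It held 59 OGT positions, 4.02-fold (3.06 to 5.18), and 122 H2B S112GlcNAc positions, 3.88-fold (3.22 to 4.63). The bodies are the rest of each span. They stood at 1.45-fold for TET2 (1.16 to 1.79), while OGT was at 1.27-fold (0.916 to 1.72) and H2B S112GlcNAc at 1.24-fold (0.997 to 1.53), both with intervals that include the library mean. The flanks, up to 10 kb on both sides without the start window, stood at 2.35-fold (2.14 to 2.58), 1.94-fold (1.69 to 2.22) and 1.80-fold (1.64 to 1.98).

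Starts were therefore 2.51 times as dense as flanks for TET2 (2.07 to 3.02), 2.07 times for OGT (1.52 to 2.77) and 2.15 times for H2B S112GlcNAc (1.74 to 2.64). Against bodies the ratio was 4.07 for TET2 (3.10 to 5.38), 3.16 for OGT (2.09 to 4.81) and 3.12 for H2B S112GlcNAc (2.35 to 4.15). Summed over the genes, bodies were less dense than flanks in each library, with ratios of 0.615 (0.482 to 0.778), 0.654 (0.458 to 0.913) and 0.690 (0.542 to 0.869). *Npm1* carried part of this: without it the ratio was 0.734 for TET2 (0.565 to 0.941), but 0.783 for OGT (0.540 to 1.11) and 0.822 for H2B S112GlcNAc (0.638 to 1.05), and the last pair of intervals includes 1. With a narrower start window of 1.5 kb the OGT ratio was 0.782 (0.571 to 1.05). Body sums, against flanks and starts alike, are weighted by length: *Ncl* gave 13.5 kb and *Npm1* 10.5 kb of the 45 kb. The treatment of reads with several matches in the genome is not known. Its part in the body counts was not tested. Gene by gene the ratio of body to flanks was above 1 at *Actb* (1.65), *Hspa8* (1.09) and *Hsp90ab1* (1.08) for TET2. For OGT it was above 1 at *Gapdh* (1.93), and for H2B S112GlcNAc at *Actb* (1.20) and *Gapdh* (1.19). All these intervals include 1, and the other genes stood below 1. Leaving out each gene in turn kept the ratio of starts to flanks from 2.32 to 2.78 in the TET2 library, 1.88 to 2.31 in the OGT library and 1.98 to 2.38 in the H2B S112GlcNAc library. A window of the same size at the 3′ edge of each gene, measured as a control, was not denser than the flanks. Its ratio to them was 0.890 for TET2 (0.659 to 1.18), 0.771 for OGT (0.473 to 1.20) and 0.952 for H2B S112GlcNAc (0.704 to 1.27). The outer 1 kb of this window also counts in the flanks. Both sides of the ratio thus share reads, which draws it toward 1 and makes its interval approximate. Starts, which share no reads with this window, were 2.81 times as dense as it for TET2 (2.05 to 3.91). They were 2.68 times as dense for OGT (1.62 to 4.60) and 2.26 times for H2B S112GlcNAc (1.63 to 3.17).

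**Figure D1:**
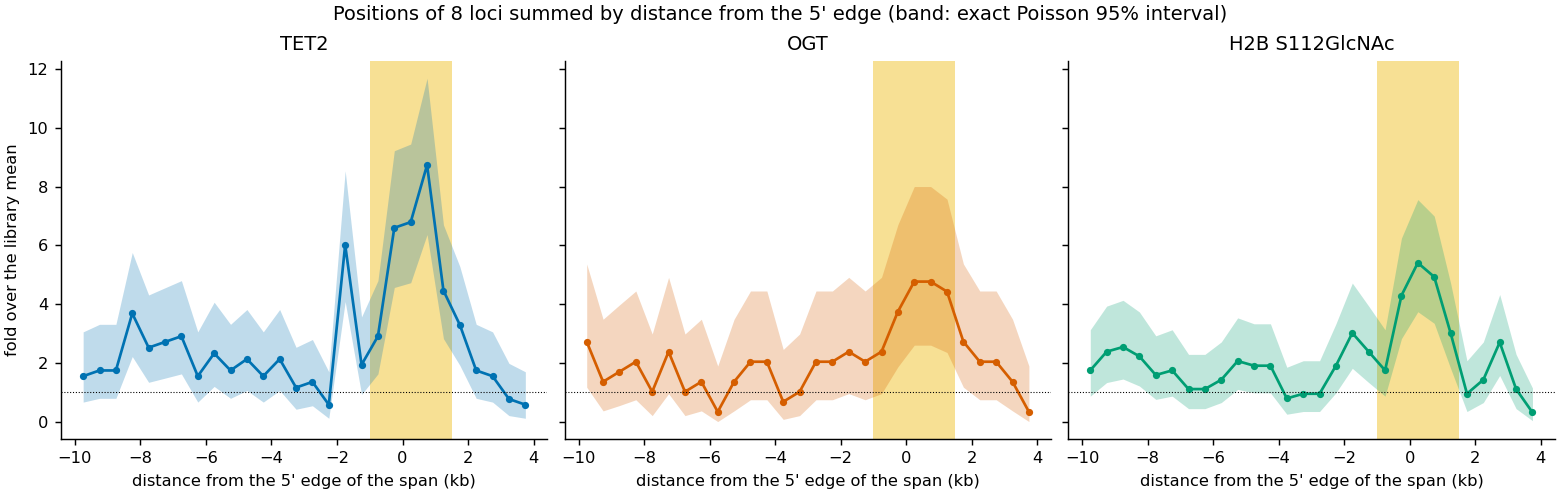
Positions of the 8 loci summed in bins of 500 bp by distance from the 5′ edge of the span (x axis, kb, negative values upstream), as fold over the library mean (y axis), for the 3 libraries, with the exact Poisson 95% interval as a band and the 2.5 kb window shaded. TET2 reaches 8.73-fold and H2B S112GlcNAc 5.41-fold inside the shaded window, and the TET2 point at 2 to 1.5 kb upstream is 6.01-fold, of which 21 of 31 positions come from *Ppia*.

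By distance, the summed TET2 density was highest from 500 to 1000 bp inside the edge, with 45 positions or 8.73-fold (6.37 to 11.7). H2B S112GlcNAc was highest from 0 to 500 bp inside, with 34 positions or 5.41-fold (3.74 to 7.55). OGT had 14 positions in each of these bins, 4.77-fold (2.61 to 8.0). The intervals of neighbouring bins overlap, and start sites are known to about 1 kb, so the peaks of the 3 libraries cannot be ordered along the gene. From 2 to 4 kb inside the edge TET2 lay between 0.582-fold and 1.75-fold.

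Gene by gene, the TET2 library was dense at every start. All 8 start windows reached 4-fold over the library mean, a level met by 1.80% of all 2.5 kb windows of the genome. For OGT 3 of 8 reached it (1.35% of windows), and for H2B S112GlcNAc 5 of 8 (0.810% of windows). At the 3′ edge 2 of 8 reached it for TET2, *Gapdh* and *Hsp90ab1*, and 0 for the other libraries. The median start was 6.05-fold for TET2, 3.54-fold for OGT and 4.20-fold for H2B S112GlcNAc, beside 0.621, 0.545 and 0.763 over all windows. The comparison is with the whole genome and not with other gene starts, whose mm9 positions were not used here. In a single random draw of each library down to the OGT depth, 6 of 8 starts reached 4-fold for TET2. For both OGT and H2B S112GlcNAc 3 of 8 did. *Gapdh* and *Eef1a1* stood at 2.72-fold for TET2 in this draw. The spread between draws was not measured. Keeping every read also left 3 of 8 for H2B S112GlcNAc. With a start window narrowed to 1.5 kb, 7 of 8 starts reached 4-fold for TET2, and *Ppia* stood at 3.62-fold (1.46 to 7.46).

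**Figure D2:**
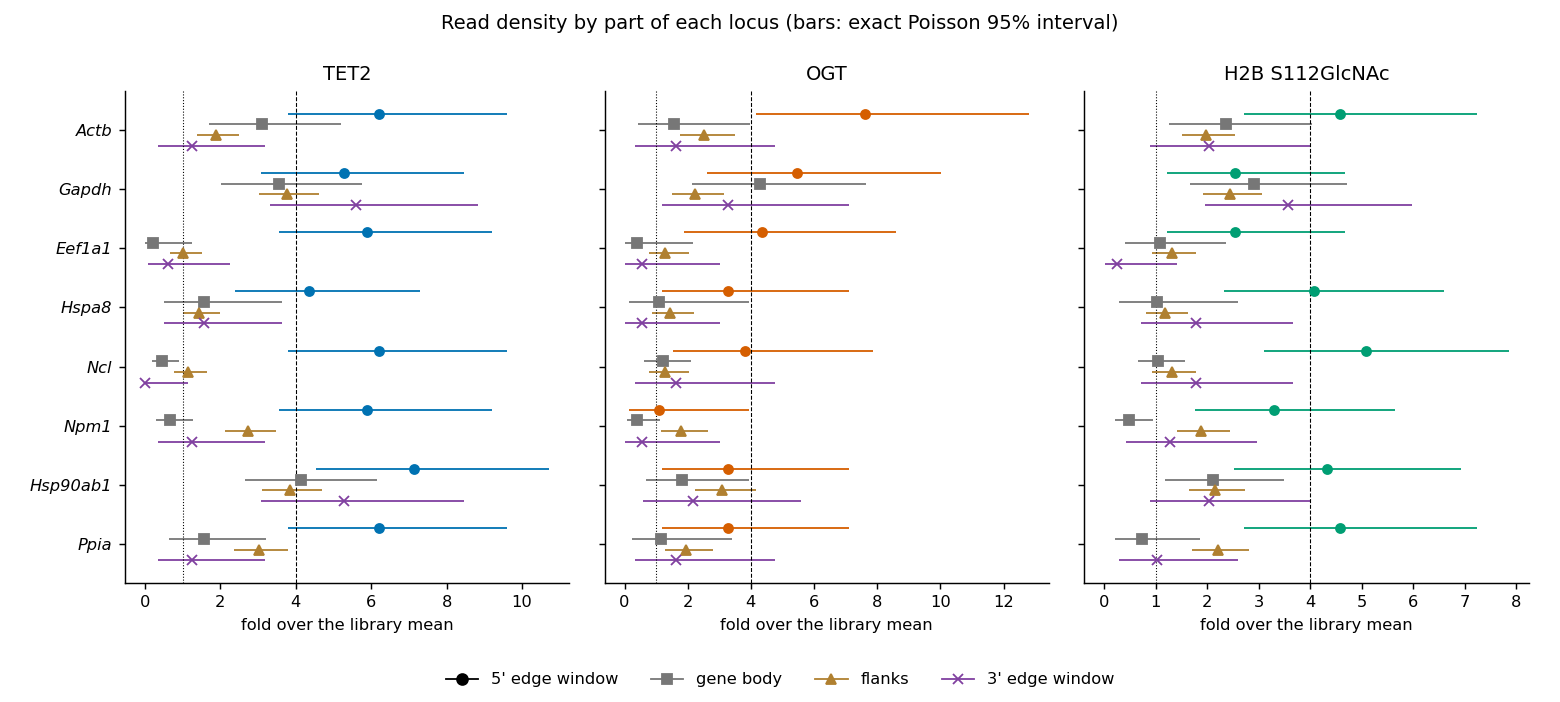
Density in the 5′ edge window (coloured circles), gene body (grey squares), flanks (brown triangles) and 3′ edge window (purple crosses) of each gene, as fold over the library mean (x axis, a scale of its own in each panel) with exact Poisson 95% intervals. The dotted line is the library mean and the dashed line 4-fold: all 8 TET2 circles lie past the dashed line, 3 OGT circles and 5 H2B S112GlcNAc circles do.

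*Actb* on chromosome 5 (span 143664 to 143669 kb) encodes beta-actin, the main cytoskeletal actin. Its start window held 20 TET2, 14 OGT and 18 H2B S112GlcNAc positions, or 6.21-fold (3.79 to 9.59), 7.63-fold (4.17 to 12.8) and 4.58-fold (2.71 to 7.24). This was the highest OGT count of the 8 genes, and 0.133% of genome windows held as many. The bin from 1000 to 1500 bp inside the edge, at 143667501 to 143668000, led in all 3 libraries, with 7, 6 and 8 positions. For H2B S112GlcNAc it was tied by a bin 6500 to 7000 bp past the 3′ edge. The *Actb* body held 14, 4 and 13 positions in 3.5 kb, and the start was 4.90 times as dense as the body for OGT (1.54 to 20.4) but 2.00 times for TET2, with an interval of 0.961 to 4.28.

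*Gapdh* on chromosome 6 (125111 to 125116 kb) encodes a glycolytic dehydrogenase. Its start held 17 TET2, 10 OGT and 10 H2B S112GlcNAc positions, or 5.28-fold (3.07 to 8.45), 5.45-fold (2.61 to 10) and 2.54-fold (1.22 to 4.68). The TET2 and H2B S112GlcNAc counts did not stand apart from the rest of the locus. Their ratios to the flanks were 1.4 (0.784 to 2.37) and 1.04 (0.479 to 2.03). For OGT the start was 2.45 times as dense as the flanks (1.07 to 5.13), but it did not stand apart from the body or the 3′ edge. It was 1.27 times as dense as the body (0.485 to 3.30), which was itself at 4.28-fold (2.14 to 7.66). Against the window at the 3′ edge the OGT ratio was 1.67 (0.549 to 5.58). The flanks of *Gapdh* were read-rich, with 92 TET2 positions or 3.76-fold (3.03 to 4.61), and the window at the 3′ edge held 18 TET2 positions, as many as the start within counting error. The leading bins of *Gapdh* were all in the flanks: 10 TET2 positions 8000 to 8500 bp past the 3′ edge, 7 H2B S112GlcNAc positions 7000 to 7500 bp past it, and 4 OGT positions 8000 to 8500 bp upstream of the start. In RefSeq, *Iffo1* lies next to the 3′ end of *Gapdh* and *Ncapd2* upstream of its start, and which of these genes the reads belong to was not tested.

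*Eef1a1* on chromosome 9 (78325 to 78330 kb) encodes the elongation factor that brings aminoacyl-tRNA to the ribosome. Its ratio of start to body was the highest of the 8 genes for TET2 and OGT, but not for H2B S112GlcNAc. The start held 19 TET2, 8 OGT and 10 H2B S112GlcNAc positions, and the body of 3.5 kb held 1, 1 and 6. The start was 5.90-fold over the mean for TET2 (3.55 to 9.21), 4.36-fold for OGT (1.88 to 8.59) and 2.54-fold for H2B S112GlcNAc (1.22 to 4.68). Against the body the TET2 ratio was 26.6 with a wide interval (4.23 to 1105), because a single position stood in the body. It was 11.2 for OGT (1.5 to 497) and 2.33 for H2B S112GlcNAc (0.768 to 7.81). The bin from 500 to 1000 bp inside the edge led in all 3 libraries, with 9, 4 and 4 positions, the last tied with a bin upstream. In the enriched region at 78329001 to 78329750 the 6 OGT positions were all on the plus strand, while TET2 had 5 plus and 9 minus.

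**Figure D3:**
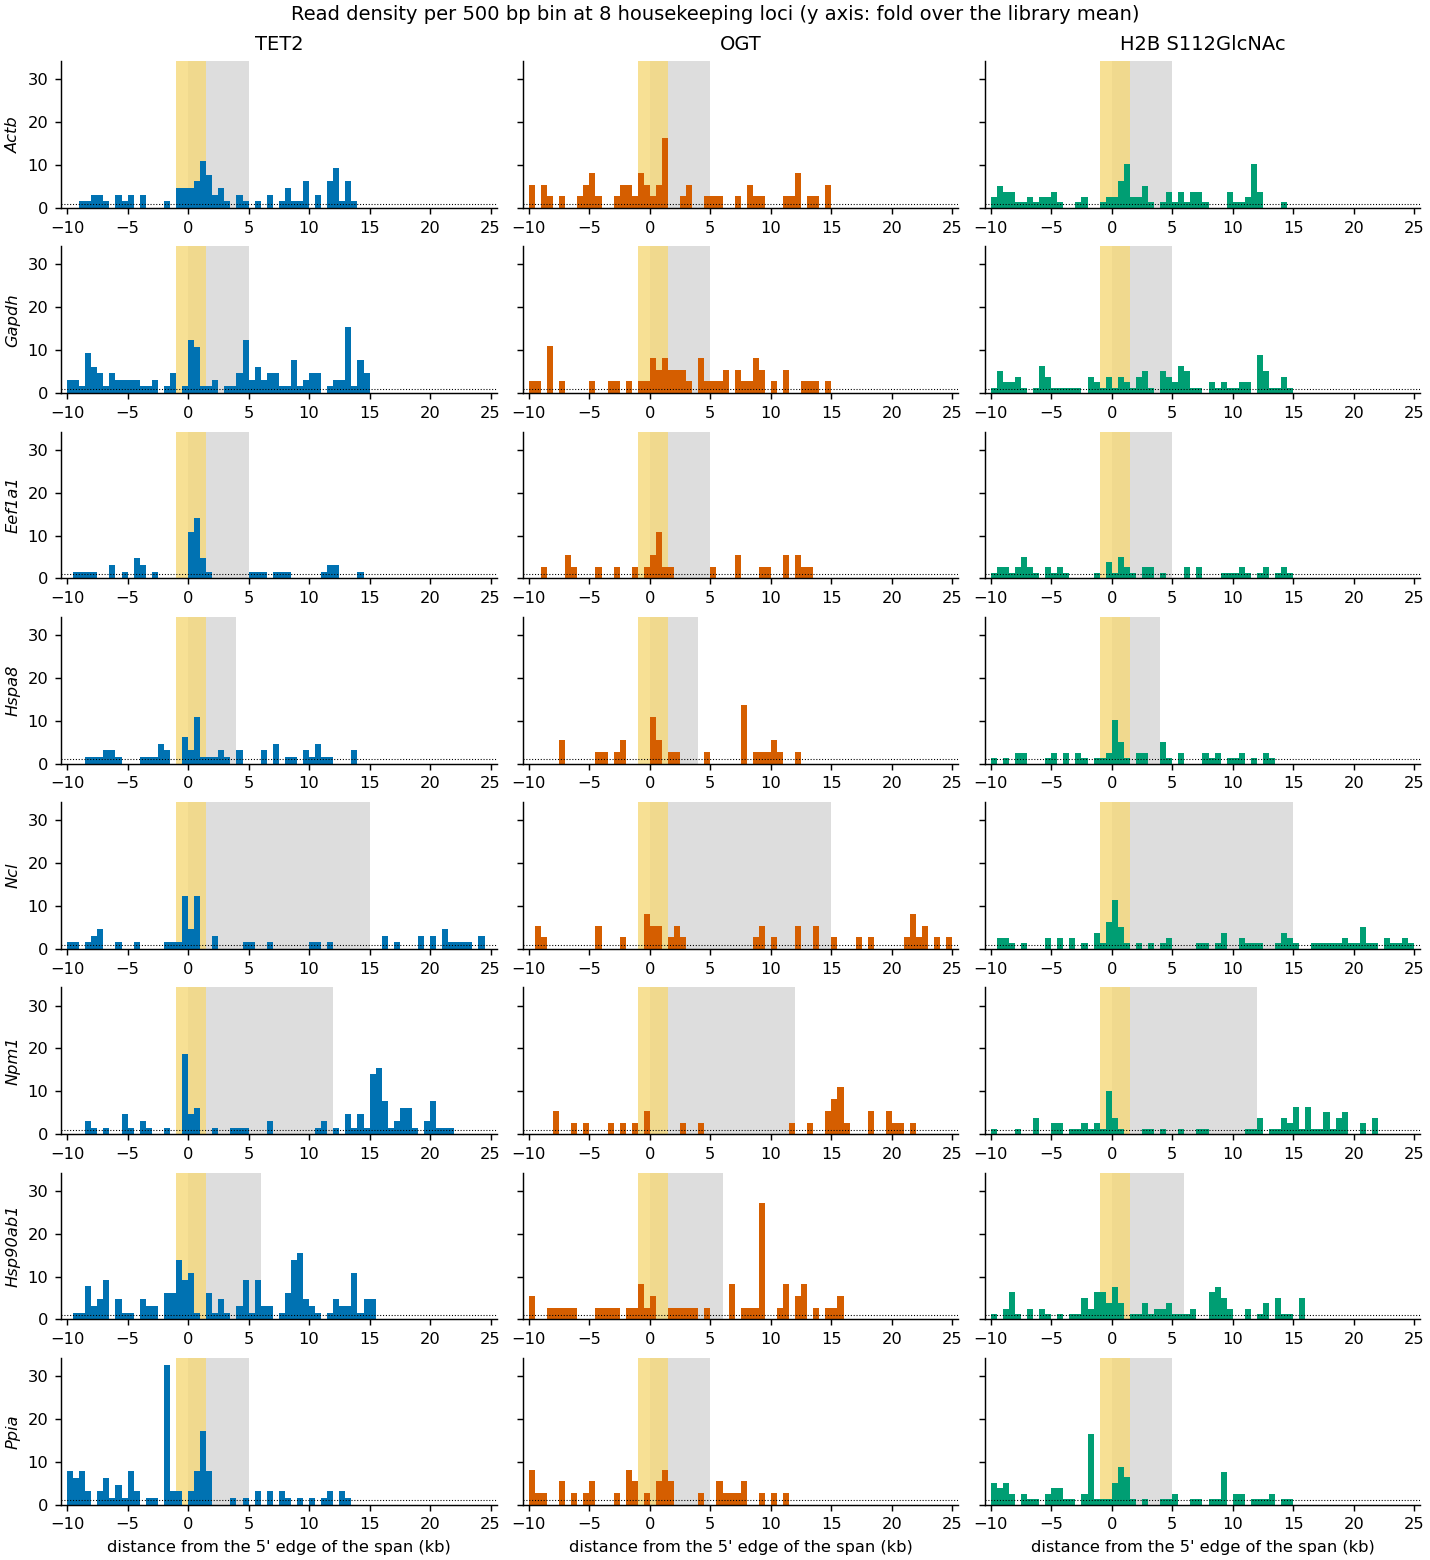
Density in each 500 bp bin (y axis, fold over the library mean, the same scale in all panels) by distance from the 5′ edge of the span (x axis, kb) for the 8 genes (rows) and 3 libraries (columns), with the gene span in grey, the start window in yellow and the library mean as a dotted line. A bar in the yellow band is seen in nearly every panel, and tall bars outside it are at *Ppia* upstream (32.6-fold for TET2), *Hsp90ab1* downstream (27.2-fold for OGT) and *Npm1* and *Gapdh* downstream (each 15.5-fold for TET2).

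A further 3 genes encode chaperones or folding enzymes. *Hspa8* on chromosome 9 (40609 to 40613 kb), the constitutive Hsp70, had the lowest TET2 start, with 14 TET2, 6 OGT and 16 H2B S112GlcNAc positions, or 4.35-fold (2.38 to 7.29), 3.27-fold (1.20 to 7.12) and 4.07-fold (2.33 to 6.61). Its start was denser than the flanks for TET2 (3.04 times, 1.51 to 5.80) and H2B S112GlcNAc (3.47 times, 1.80 to 6.44). The body held 5, 2 and 4 positions. The leading bins were 500 to 1000 bp inside the edge for TET2 (7 positions) and 0 to 500 bp inside for H2B S112GlcNAc (8 positions), while that of OGT lay 3500 to 4000 bp past the 3′ edge (5 positions). In RefSeq the small nucleolar RNA genes *Snord14c*, *Snord14d* and *Snord14e* lie inside *Hspa8*.

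*Hsp90ab1* on chromosome 17 (45704 to 45710 kb), the constitutive cytosolic Hsp90, had the highest TET2 start of the 8. It held 23 TET2, 6 OGT and 17 H2B S112GlcNAc positions, or 7.14-fold (4.53 to 10.7), 3.27-fold (1.20 to 7.12) and 4.32-fold (2.52 to 6.92). The rest of the locus was read-rich as well, with a body at 4.14-fold (2.65 to 6.16) and flanks at 3.84-fold (3.10 to 4.70) for TET2. The start was 1.86 times as dense as the flanks for TET2 (1.12 to 2.96) and 1.06 times for OGT (0.369 to 2.5). The densest OGT bin of all 8 loci lay here, 3000 to 3500 bp past the 3′ edge, at 45700501 to 45701000, where 10 OGT positions gave 27.2-fold (13.1 to 50.1), beside 10 positions of TET2 and 4 of H2B S112GlcNAc. It was the leading TET2 bin of the locus too, and H2B S112GlcNAc led with 6 positions both next to it and at 0 to 500 bp inside the 5′ edge. RefSeq places *Slc35b2* and *Nfkbie* on that side of *Hsp90ab1*.

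*Ppia* on chromosome 11 (6315 to 6320 kb) encodes cyclophilin A, a prolyl isomerase. Its start held 20 TET2, 6 OGT and 18 H2B S112GlcNAc positions, or 6.21-fold (3.79 to 9.59), 3.27-fold (1.20 to 7.12) and 4.58-fold (2.71 to 7.24). The body held 7, 3 and 4 positions, and the start was 4.0 times as dense as the body for TET2 (1.62 to 11.2) and 6.30 times for H2B S112GlcNAc (2.08 to 25.6). The tallest bin of all 8 loci lay outside the window, at 6313001 to 6313500, from 1500 to 2000 bp upstream of the 5′ edge. It held 21 TET2 positions, 32.6-fold (20.2 to 49.8), 13 H2B S112GlcNAc positions, 16.5-fold (8.80 to 28.3), and 3 OGT positions. The TET2 reads there numbered 24, with 11 positions on the plus and 10 on the minus strand, so most reads stood at positions of their own, on both strands. The OGT bins of *Ppia* did not exceed 3 positions, a count shared by this bin, one at the start and one at the far 5′ end. In RefSeq *Zmiz2* lies within 10 kb upstream of *Ppia* and *H2az2* within 10 kb downstream. With this peak counted in the flanks, the TET2 start of *Ppia* was 2.05 times as dense as its flanks (1.19 to 3.40).

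The remaining pair encodes nucleolar proteins of ribosome assembly. *Ncl* (nucleolin) on chromosome 1 (88241 to 88256 kb) held 20 TET2, 7 OGT and 20 H2B S112GlcNAc positions at its start, or 6.21-fold (3.79 to 9.59), 3.81-fold (1.53 to 7.86) and 5.09-fold (3.11 to 7.86). The H2B S112GlcNAc count was the highest of the 8 genes. The body of 13.5 kb held 8, 12 and 22 positions, so TET2 stood below its library mean there, at 0.460-fold (0.199 to 0.906), while OGT was at 1.21-fold (0.626 to 2.12) and H2B S112GlcNAc at 1.04-fold (0.649 to 1.57). The TET2 start was 13.5 times as dense as the body (5.70 to 35.4) and 5.43 times as dense as the flanks (2.90 to 9.99). TET2 led with 8 positions in each of the bins 500 to 1000 bp inside the edge and 0 to 500 bp outside it, and H2B S112GlcNAc with 9 positions in the bin between them. OGT had at most 3 positions in a bin of this locus.

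*Npm1* (nucleophosmin) on chromosome 11 (33051 to 33063 kb) was the gene at which the libraries differed most. Its start held 19 TET2 positions, 5.90-fold (3.55 to 9.21), and 13 H2B S112GlcNAc positions, 3.31-fold (1.76 to 5.65), but 2 OGT positions, 1.09-fold (0.132 to 3.94). An OGT count of 2 or more was met by 46.1% of genome windows. The OGT interval at *Npm1* lies below that at *Actb*, whereas for TET2 and H2B S112GlcNAc the intervals of all 8 starts overlap. The leading bin at the start, 33063001 to 33063500, held 12 TET2 and 8 H2B S112GlcNAc positions. The body held 9, 3 and 8 positions in 10.5 kb, below the library mean for H2B S112GlcNAc (0.484-fold, 0.209 to 0.955). Downstream, from 3250 to 3750 bp past the 3′ edge and on the side of *Fgf18*, 11 TET2 positions were found in 500 bp, with 3 OGT and 5 H2B S112GlcNAc positions. The leading OGT bin of *Npm1* was there as well, with 4 positions.

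Empty bins were more frequent in bodies than at starts or in flanks. Of the 90 body bins of 500 bp, 22 (24.4%) had no position in any library, against 26 of 304 flank bins (8.55%), 3 of 40 start bins (7.50%) and 29.9% of all usable bins. *Ncl* held 27 and *Npm1* 21 of the 90 body bins. Of the empty body bins 8 were in *Npm1*, 7 in *Ncl*, 3 in *Eef1a1* and 0 in *Gapdh* and *Hsp90ab1*. The treatment of reads with several matches in the genome (not given in the sources used here) can empty such bins, and its part was not tested. Repeats were few at the loci, with 1.09 TET2, 1.07 OGT and 1.07 H2B S112GlcNAc reads per position at the starts, against 1.16, 1.16 and 1.15 in the libraries.

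Enriched regions, called over the whole genome within each library, gave a stricter view. A window of 500 bp passed with an adjusted Poisson tail under 0.01 and at least 4-fold over the highest of the genome, 10 kb and 50 kb means. A TET2 region overlapped the start window of 4 of the 8 genes, *Eef1a1*, *Ncl*, *Npm1* and *Ppia*, against 1.10% of genome windows. An H2B S112GlcNAc region did so at 1 of 8, *Ncl* (0.315%). No OGT region did (0 of 8, 0.207%). The call depends on depth. With the libraries drawn down to the OGT depth, in a single random draw, no start had a region in any of the 3. With a tail of 1e-05 the count was 1 of 8 for TET2 and 0 for the others. Outside the starts, TET2 regions lay 6750 to 7250 bp past the 3′ edge of *Actb*, 3250 to 3750 bp past that of *Npm1*, 2750 to 3250 bp past that of *Hsp90ab1*, and 1500 to 2000 bp upstream of *Ppia*. The last was also an H2B S112GlcNAc region, and the *Hsp90ab1* place overlapped an OGT region.

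Between libraries, scaled to their totals, TET2 was denser than both others at the summed starts. The ratio was 1.47 to OGT (1.08 to 2.02) and 1.52 to H2B S112GlcNAc (1.19 to 1.95), while OGT and H2B S112GlcNAc stood at 1.04 (0.746 to 1.42). The ratio of TET2 to OGT rested on single genes: it was 1.33 without *Npm1* (0.968 to 1.85) and 1.39 without *Hsp90ab1*, and both intervals include 1. The ratio of TET2 to H2B S112GlcNAc stayed from 1.45 to 1.59 with each gene left out in turn, with every interval above 1. The flanks of the same loci gave 1.21 (1.03 to 1.43), 1.31 (1.14 to 1.49) and 1.08 (0.912 to 1.27), and the bodies 1.14 (0.778 to 1.69), 1.16 (0.853 to 1.59) and 1.02 (0.690 to 1.49). Over the 90147 genome windows with at least 30 positions in the 3 libraries together, which all 8 starts reach, the median ratios were 1.22, 1.29 and 1.07. These lie within the intervals of the starts, so a balance of libraries particular to the 8 starts was not detectable at this depth. In the single random draw down to the OGT depth, the first ratios were 1.32 (0.931 to 1.89) and 1.37 (0.960 to 1.96), and their intervals included 1.

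Single genes reached a ratio of 2 at close to the genome-wide rate. TET2 over OGT was at least 2 at *Npm1*, 5.41 (1.31 to 47.9), and *Hsp90ab1*, 2.18 (0.864 to 6.56), which is 2 of 8 against 17.9% of dense windows. TET2 over H2B S112GlcNAc was at least 2 at *Eef1a1*, 2.32 (1.03 to 5.58), and *Gapdh*, 2.07 (0.897 to 5.07), again 2 of 8 against 15.4%. OGT over H2B S112GlcNAc was 2.14 at *Gapdh* (0.800 to 5.73; 7.66% of windows), and H2B S112GlcNAc was higher by that measure at *Npm1*, where OGT over H2B S112GlcNAc was 0.330 (0.0361 to 1.46; 8.27% of windows). No start had an OGT to TET2 ratio of 2 or an H2B S112GlcNAc to TET2 ratio of 2, which 3.57% and 1.75% of windows had. *Actb* and *Gapdh* were the genes with TET2 over OGT under 1, at 0.814 (0.391 to 1.74) and 0.968 (0.419 to 2.37).

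**Figure D4:**
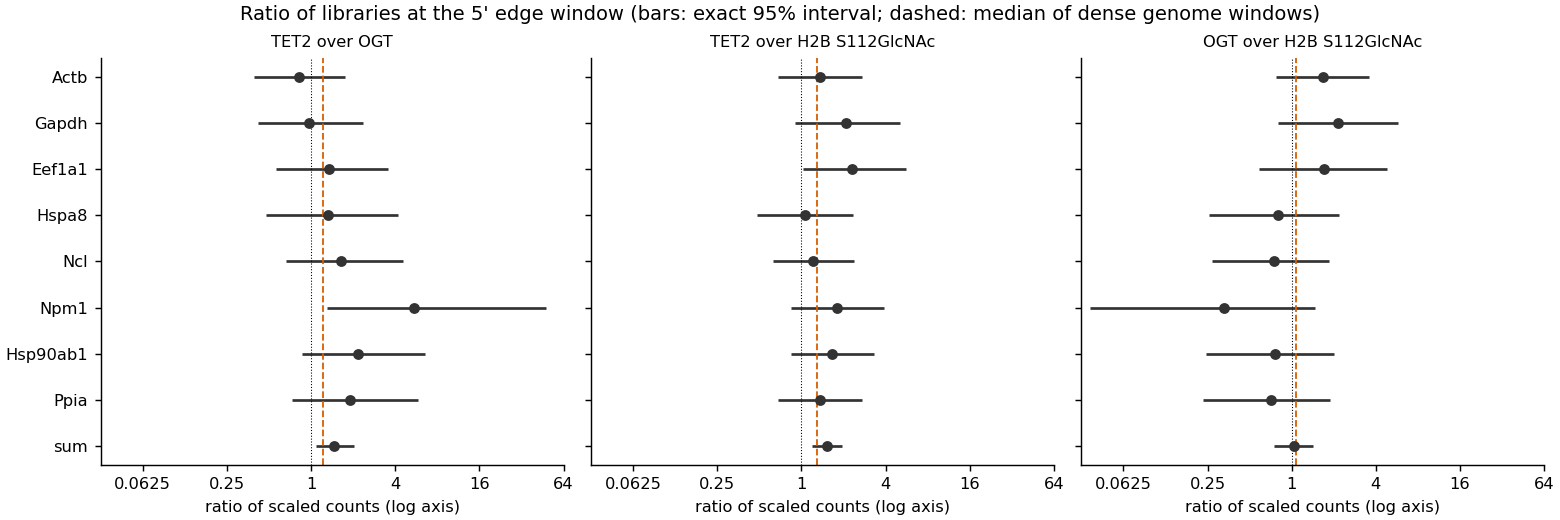
Ratio of scaled counts in the 2.5 kb start window (x axis, log scale) for each pair of libraries, by gene and for the sum of the 8 genes, with exact 95% intervals. The dotted line is a ratio of 1 and the dashed line the median of dense genome windows (1.22, 1.29 and 1.07): the interval of *Npm1* for TET2 over OGT and that of *Eef1a1* for TET2 over H2B S112GlcNAc are the single-gene intervals that leave out 1.

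Set beside the promoter sequences, the 4 genes with a sequence kept no common order over the libraries. From *Ppia* with 43 CpG through *Ncl* with 33 and *Eef1a1* with 22 to *Gapdh* with 12, the start windows held 20, 20, 19 and 17 TET2 positions, 18, 20, 10 and 10 H2B S112GlcNAc positions, and 6, 7, 8 and 10 OGT positions. The intervals of these counts overlap within each library, and 4 genes are too few for a correlation.

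The flanks carried much of the variation among the loci. For TET2 they ranged from 1.02-fold at *Eef1a1* (0.661 to 1.51) and 1.14-fold at *Ncl* (0.760 to 1.65) to 3.76-fold at *Gapdh* and 3.84-fold at *Hsp90ab1*. At *Npm1* the excess was on the 3′ side, with 55 TET2 positions or 4.27-fold (3.22 to 5.56) against 12 positions or 1.03-fold (0.535 to 1.81) on the 5′ side. At *Ppia* it was on the 5′ side, with 59 positions or 5.09-fold (3.87 to 6.56) against 15 or 1.16-fold (0.651 to 1.92). H2B S112GlcNAc had the same sides, with 40 against 16 positions at *Npm1* and 43 against 23 at *Ppia*. OGT had 18 against 7 at *Npm1* and 17 against 10 at *Ppia*.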

How the data were processed

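ChIP-seq libraries for TET2, OGT and H2B S112GlcNAc, 1 each, were compared at 8 gene loci. Per the labels' protocols, fragments were gel-selected between 200 and 600 bp and given 20 cycles of PCR. The authors deposited aligned reads of 44 bp on mm9 with a constant score that carries no measurement. The submitters' processing notes name CASAVA 1.4 and Bowtie 0.12.2. Whether repeated or multiply matching reads were filtered was not stated.

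The OGT file names chromosomes by sequence identifiers of the same assembly, which were translated. Each position and strand was counted once, each 5′ end was shifted 100 bp in the direction of its read, and bins were counted with Python 3.11.15, numpy 2.4.6 and scipy 1.17.1. The usable genome was the 10 kb stretches with a read. Gene strand came from the RefSeq promoter table for 4 genes and from general knowledge for *Actb*, *Hspa8*, *Npm1* and *Hsp90ab1*. Intervals are exact (Poisson, or Clopper-Pearson for ratios). Region calling was tested on simulated data. All 8 members are named, with the leading bins and the regions at their loci. The members, lists and windows were chosen with earlier results of these data known, and the 3′ edge window, the promoter motifs and leaving out each gene were added after seeing the data. Other housekeeping genes were not analysed here, since no mm9 annotation was used.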

Additional observations from a re-analysis of the deposited data

How the results depend on the processing

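No paired analysis was possible because the 3 libraries carry no replicate numbers. Alternatives kept every read, used no shift or 50 bp, or drew libraries down to the smallest in a single random draw. Others narrowed the start window to 1.5 kb, left out extreme bins, or changed the flanks, the reference density or the scaling. Of 114 values of the main comparisons 102 stayed within 1.5 times (counts of genes) or the 95% interval of the reported value (ratios), and 12 moved. No ratio whose interval left out 1 changed direction. OGT over H2B S112GlcNAc at the summed starts, whose interval includes 1, went from 1.04 to 0.908 with the narrower window. Body to flank for OGT then had an interval that includes 1. Of 336 values of single genes 331 stayed and 5 moved. Part of both tallies could not move. OGT is the smallest library, so drawing down left its positions as they were. The 8 loci held 0 extreme bins, so leaving such bins out could act only through the library totals. With the narrower window the ratio of starts to flanks was 3.11 for TET2 and 2.71 for H2B S112GlcNAc. Then 5 OGT starts and 7 TET2 starts reached 4-fold. H2B S112GlcNAc starts at 4-fold were 3 with every read kept and 3 when drawn down. Starts with a TET2 region were 1 with a tail of 1e-05, 2 with the window kept in its background and 0 when drawn down. For H2B S112GlcNAc there were 0 in each of these and at 8-fold. Stricter rules lower counts of regions by construction. Drawing down need not lower a fold over the mean, which is taken from the drawn library. The TET2 start of *Actb* went from 6.21-fold to 8.17-fold, and that of *Gapdh* from 5.28-fold to 2.72-fold. For changes other than the stricter rules the cause was not tested. At 2.5 kb the OGT library holds 1.84 positions at its mean, so differences between single genes were mostly not detectable. With flank bins inside enriched regions left out, chosen after seeing the data, the ratios of starts to flanks were 2.84, 2.25 and 2.28. These bins were picked for high counts and dropped from the flanks alone, while the starts kept theirs. A rise was therefore largely built into this change.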
